A study of Homo sapiens with 12 samples.

Results

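The genes described here are 34 genes of the lysosome and of autophagy, taken from a list of named lysosomal enzymes, lysosomal membrane proteins, V-ATPase subunits and autophagy genes, with the transcription factors TFEB and TFE3. The list was not built from measured values of the contrasts, but it was drawn up with earlier results of these data known. Of the 34 listed genes, 33 were matched in the transcript tables and 32 were abundant enough to be tested, among 12821 tested genes in all. NEU1 (neuraminidase) was not analysed here because its transcripts were not matched, and CTSZ (a lysosomal carboxypeptidase) was matched but was nearly absent, at no more than 0.239 CPM in any library. Levels are in CPM (the estimated count of a gene scaled to its library's normalised size) unless TPM, which also corrects for transcript length, is named.

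The cells were HepG2, an established human hepatoma line that still makes albumin and other liver proteins. Unedited cells, called wild type (WT), and ARID1B-knockout cells made with CRISPR/Cas9 (ARID1B-KO) each received either 5 µM sorafenib or the DMSO vehicle (0.1% by volume) for 48 h. Polyadenylated RNA was sequenced from 3 replicates in each of the 4 groups, which gave 12 libraries. ARID1B belongs to the BAF complexes, which remodel nucleosomes, and sorafenib inhibits RAF and growth factor receptor kinases. The number of knockout clones is not given in the labels, so a difference between genotypes cannot be told apart from a difference between clones. RNA levels alone were measured, with no protein level, lysosomal activity or autophagic flux.

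Lysosomes are acidic organelles that degrade proteins, glycans, lipids and whole organelles. Soluble hydrolases do the degrading, the V-ATPase proton pump keeps the lumen acidic, and membrane proteins protect the membrane and export the products. Macroautophagy delivers cytoplasm to the lysosome: the ULK1 kinase complex and the BECN1 lipid kinase complex start a membrane, WIPI proteins bind its lipid, ATG7 and ATG5 act in attaching proteins of the ATG8 family (MAP1LC3B, GABARAPL1) to it, and SQSTM1 (p62) links cargo to them. The transcription factors TFEB and TFE3, held in the cytoplasm by the mTORC1 kinase when nutrients are plentiful, bind an E-box called the CLEAR element near the starts of many of these genes.

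The E-box is shown first because it is the sequence that members of this pathway are known to share. The genes below that carry it were not all called in the same direction with sorafenib. Promoter windows of RefSeq (GRCh38.p14, 250 bases before to 50 bases after a start) were given for 26 of the 34 listed genes. In the stretches below, all 5′ to 3′ on the gene's strand and all ending before the RefSeq start, capitals mark the core CACGTG. The gene spans of another annotation, GENCODE 44, begin elsewhere for some genes. By those spans the CTSA stretch (gene from 45890144) and the CTSD stretch (minus-strand gene from 1764573) lie inside the gene. The GAA stretch crosses its gene's start at 80101533.
LAMP1 (chr13:113297027-113297122, plus strand): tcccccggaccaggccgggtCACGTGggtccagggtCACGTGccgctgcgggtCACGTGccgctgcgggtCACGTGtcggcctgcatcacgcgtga
GAA (chr17:80101485-80101575, plus strand): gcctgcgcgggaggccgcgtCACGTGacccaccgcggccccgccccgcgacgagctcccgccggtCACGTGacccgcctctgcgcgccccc
CTSD (chr11:1763949-1763994, minus strand): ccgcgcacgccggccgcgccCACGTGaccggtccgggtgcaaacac
CTSA (chr20:45891273-45891334, plus strand): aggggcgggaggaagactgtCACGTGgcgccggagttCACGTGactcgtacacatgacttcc
ATP6V0D1 (chr16:67481191-67481236, minus strand): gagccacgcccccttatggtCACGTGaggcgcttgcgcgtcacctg
MCOLN1 (chr19:7522563-7522623, plus strand): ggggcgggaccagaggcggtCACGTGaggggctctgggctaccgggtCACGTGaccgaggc

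The core CACGTG stood in the windows of 7 listed genes, the 6 shown and NEU1, that is in 20.6% of the 34 windows of listed genes and in 7.26% of all 35116 windows. The longer form TCACGTGA stood in 5 (ATP6V0D1, CTSA, GAA, LAMP1 and MCOLN1), in 14.7% of the listed genes' windows against 0.98% of all windows. The full CLEAR palindrome, with 1 more base on each side (G before and C after), stood in 2 (GAA and MCOLN1), in 5.88% against 0.353%. Each motif reads the same on both strands, and each longer form contains the shorter ones. LAMP1 held 6 copies of the core, with 4 of them in the stretch shown. A match is a description of the letters and shows no binding.

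The libraries held 19739582 to 29398257 estimated counts, and 6.75% to 12.3% of the counts were mitochondrially encoded. ARID1B RNA stood at 58.4 to 69.1 CPM in the 6 wild-type libraries and at 25.9 to 35.6 CPM in the 6 ARID1B-KO libraries, so transcript remained in ARID1B-KO at a reduced level (log2 fold change -1.19 ± 0.11 SE with DMSO, edgeR adjusted p = 7.44e-06). The 8 hepatocyte and HepG2 markers, albumin among them, summed to 63200 to 67600 CPM with DMSO and 78200 to 83600 CPM with sorafenib in wild type. The ARID1B-KO sums were 76500 to 87000 CPM and 104000 to 162000 CPM. These markers did not all move alike with sorafenib. In wild type mean ALB went from 32600 to 43300 CPM and mean APOA2 from 2710 to 1150 CPM. In ARID1B-KO mean ALB went from 51000 to 88900 CPM and mean APOA2 from 1790 to 961 CPM. The 6 leukocyte markers summed to 3640 to 4050 and 838 to 953 CPM in wild type and 1850 to 2480 and 489 to 624 CPM in ARID1B-KO, nearly all of it LYZ, with the defining gene PTPRC at 0 in every library and 3 of the 6 under 1 CPM throughout. The 4 fibroblast and stellate markers summed to 39.6 to 47.9 CPM with DMSO and 63.3 to 67.6 CPM with sorafenib in wild type. The ARID1B-KO sums were 40.1 to 42.5 and 70.8 to 85.8 CPM. COL1A2 was at 0 in every library, and 2 of the 4 were under 1 CPM throughout. Within the sums, ACTA2 and PDGFRB went opposite ways with sorafenib. Mean ACTA2 went from 25.1 to 61.3 CPM in wild type and from 37.6 to 78.6 CPM in ARID1B-KO. Mean PDGFRB went from 17.7 to 3.51 CPM and from 3.74 to 1.2 CPM. The 3 cholangiocyte markers summed to 397 to 426 and 446 to 459 CPM in wild type and 375 to 419 and 424 to 511 CPM in ARID1B-KO. Of these, KRT7 was under 1 CPM throughout, but SOX9 was at 141 to 205 CPM and EPCAM at 235 to 341 CPM over all 12 libraries. The 3 endothelial markers summed to 1.16 to 1.95 and 2.91 to 4.14 CPM in wild type and 2.93 to 6.70 and 7.01 to 10.6 CPM in ARID1B-KO. Of these, PECAM1 was under 1 CPM throughout, while CDH5 reached 7.95 CPM and VWF 2.53 CPM in ARID1B-KO with sorafenib. The part of these differences in the results was not tested.

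Some libraries stood apart for the lysosomal genes, a pattern noticed after the values were seen. In the ARID1B-KO sorafenib group, replicate 1 was the highest of the group for 15 of the 15 tested hydrolase and membrane members and replicate 3 the lowest for 15 of 15, with median ratios to the group mean of 1.18, 1.03 and 0.77 in replicates 1, 2 and 3. Those libraries held 12.3%, 9.85% and 9.08% mitochondrial RNA and 9.63%, 8.93% and 6.86% albumin RNA in the same order. The shares did not rank with the ratios in every group. In ARID1B-KO with DMSO the ratios were 1.01, 1.11 and 0.86. Mitochondrial RNA there was 12.2%, 8.24% and 6.75% and albumin RNA 5.08%, 5.59% and 5.12%. In wild type with DMSO the ratios were 0.88, 1.02 and 1.09. The shares there were 8.7%, 10.3% and 9.1% mitochondrial and 3.26%, 3.42% and 3.3% albumin RNA. In wild type with sorafenib the mitochondrial share ranked as the ratio did, but the albumin share did not. In the ARID1B-KO DMSO group replicate 3 was the lowest for 13 of the 15, in the wild-type DMSO group replicate 1 was the lowest for 12, and in the wild-type sorafenib group replicate 2 was the highest for 13. The part of this library difference in the results was not tested.

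The members spanned a wide range of levels. On the TPM scale, which corrects for transcript length and so allows genes to be compared, the most abundant members with DMSO in wild type were the protease CTSD (514 ± 105 TPM, SD, n = 3), the protease CTSB (390 ± 79.0), the cholesterol carrier NPC2 (313 ± 2.81), the saposin precursor PSAP (272 ± 40.1) and CTSA (215 ± 46.9). The spreads of CTSD and CTSB overlap, as do those of NPC2 and PSAP. The order also rests on the transcript lengths modelled. In CPM, PSAP (690) and CTSB (588) stood above CTSD (542) in the same libraries. CTSD-205, with a mean of 30.0% of the CTSD counts there, is modelled at 946 bases, against 1544 in GENCODE 44. At the other end stood GABARAPL1 (4.90 ± 2.62 TPM), UVRAG (4.49 ± 0.898) and ULK1 (2.65 ± 0.419), where the spread of GABARAPL1 covers the other means. SQSTM1, at 97.2 ± 5.82 TPM, was the most abundant autophagy member, followed by BECN1 at 80.2 ± 11.1 TPM, and 8 of the 10 tested hydrolases, all but GLA and GAA, had means above that of BECN1. The transcription factors stood low, at 6.37 ± 2.24 TPM for TFE3 and 5.09 ± 3.22 TPM for TFEB.

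With sorafenib, 5 members rose and 3 fell in both genotypes. The ATG8-family gene GABARAPL1, the kinase ULK1, the lipid kinase subunit BECN1, NPC2 and CTSA rose in both genotypes, and the calcium channel gene MCOLN1, the cargo receptor SQSTM1 and the lipid-binding WIPI1 fell in both. No member was called in opposite directions. In wild type, 6 of 32 tested members rose and 5 fell, against 17.5% of all tested genes called higher and 18.0% called lower, so the members' share of calls (34.4%) was near the background of 35.4%. In ARID1B-KO, 13 of 32 rose and 4 fell, against 23.0% of all genes called higher and 23.7% called lower; 40.6% of the members were called higher. Calls are at an adjusted p under 0.05 (edgeR's quasi-likelihood test, Benjamini-Hochberg over all tested genes). Counted without a test, every sorafenib library lay above every DMSO library for 14 members and below for 5 in wild type, against 25.2% and 25.6% of all tested genes (50.8% in either direction). In ARID1B-KO this held for 8 and 5 members, against 25.8% and 27.1% (52.9%).

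**Figure D1:**
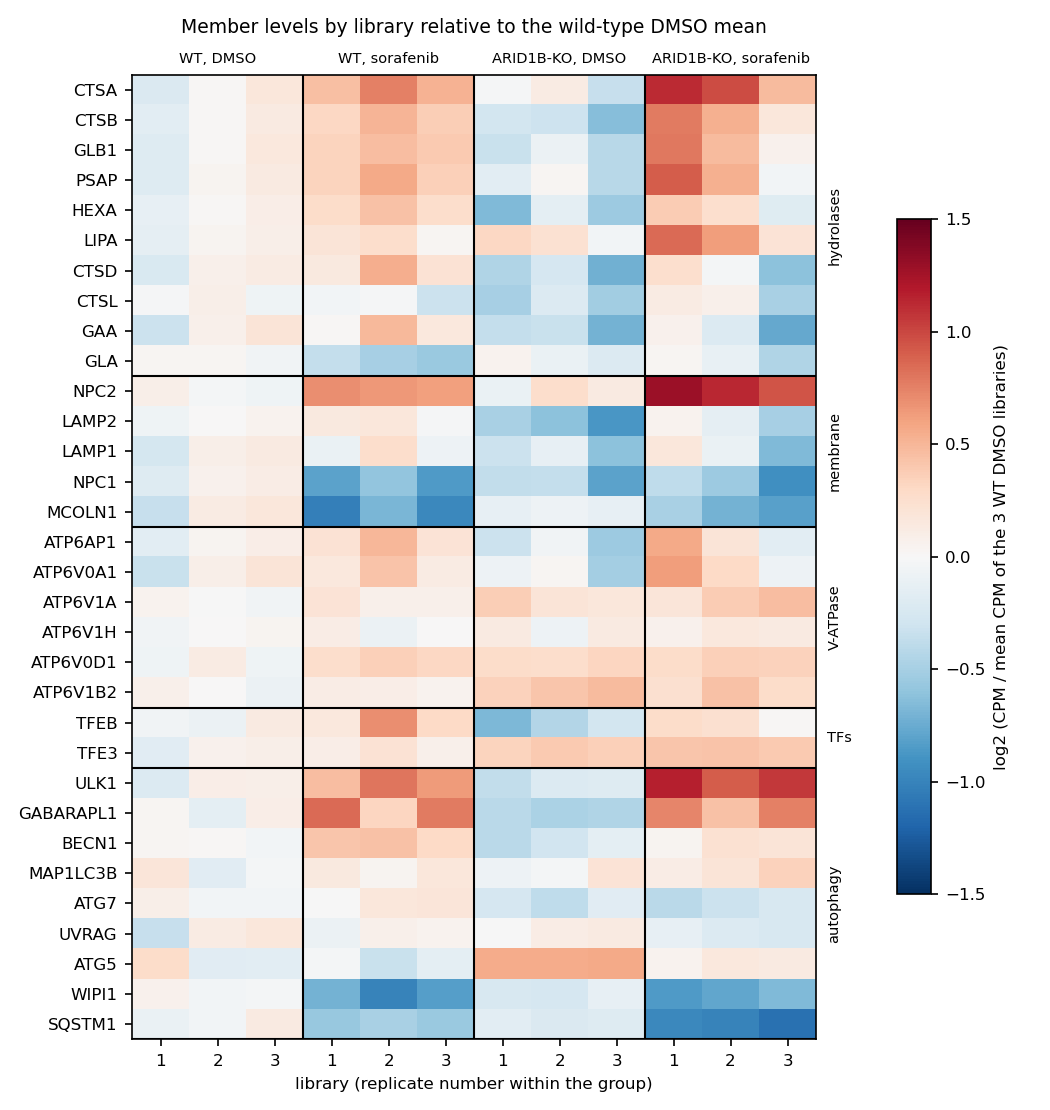
Members are stacked by role and libraries run from left to right; the colour is the log2 ratio of the library's CPM to the mean of the 3 wild-type DMSO libraries, red higher and blue lower. SQSTM1, WIPI1 and MCOLN1 are blue in all 6 sorafenib libraries and NPC2 and ULK1 red in all 6, while each hydrolase of ARID1B-KO sorafenib has a higher ratio in replicate 1 than in replicate 3.

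The median log2 fold change of the 32 members with sorafenib was 0.15 in wild type and 0.26 in ARID1B-KO, beside -0.01 and 0.01 over all tested genes. Without ARID1B-KO sorafenib replicate 1 the count of members that rose in ARID1B-KO was 10, and without replicate 3 it was 16. In wild type the count of risen members was 10 in place of 6 without ARID1B-KO sorafenib replicate 3, a library outside that comparison, and 5 without WT DMSO replicate 1 or WT sorafenib replicate 2. Correcting for the length of the transcripts each gene used in each library left 3 risen members in wild type and 7 in ARID1B-KO. From bulk RNA, fewer cells with a transcript and less of it per cell cannot be told apart.

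**Figure D2:**
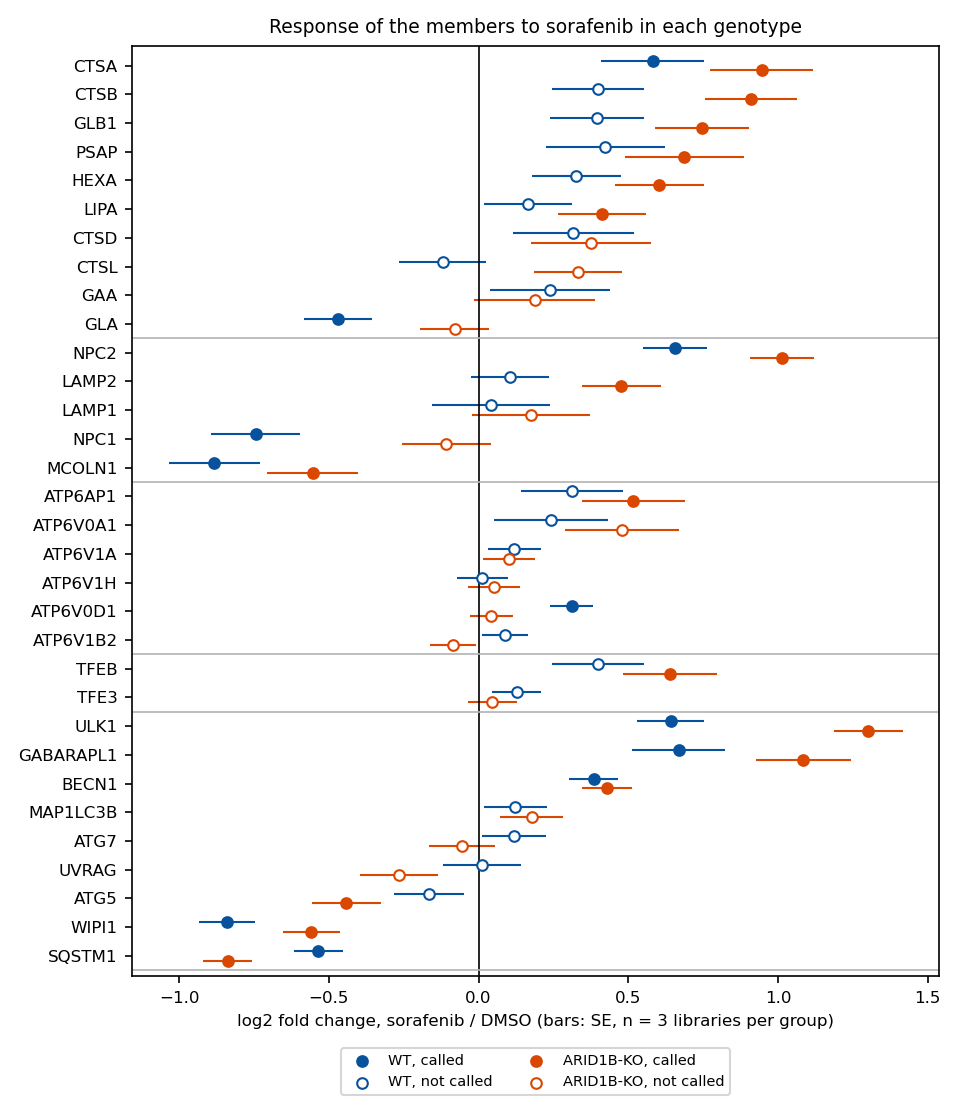
Points give the log2 fold change of sorafenib against DMSO for each tested member in wild type (blue) and ARID1B-KO (orange), with bars of 1 SE (n = 3 libraries per group); filled points passed the edgeR test at an adjusted p under 0.05. ULK1 in ARID1B-KO lies furthest right at 1.30, and MCOLN1 in wild type furthest left at -0.88.

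Among the hydrolases and their cofactors, 1 of 10 tested members rose and 1 fell in wild type, and 6 rose and none fell in ARID1B-KO (none was lower at an unadjusted p under 0.05 either, and none by DESeq2), beside 17.5% and 18.0% of all tested genes called higher and lower in wild type and 23.0% and 23.7% in ARID1B-KO. CTSA, a carboxypeptidase that also protects beta-galactosidase and neuraminidase from degradation (ENSG00000064601.21, chromosome 20, 45890144 to 45898949), had 279, 329 and 367 CPM with DMSO and 443, 549 and 466 CPM with sorafenib in wild type. Its ARID1B-KO libraries had 321, 355 and 256 CPM with DMSO and 705, 638 and 452 CPM with sorafenib. Every sorafenib library lay above every DMSO library of its genotype. The log2 fold change was 0.58 ± 0.17 (edgeR adjusted p = 0.0185) in wild type and 0.94 ± 0.17 (adjusted p = 6.78e-04) in ARID1B-KO. In wild type the call was lost without WT DMSO replicate 1 (edgeR adjusted p = 0.0726), without WT DMSO replicate 2 (0.0502) and without WT sorafenib replicate 2 (0.0774), and with the correction for transcript length (0.109).

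The protease CTSB was at 525, 593 and 646 CPM with DMSO and 728, 836 and 761 CPM with sorafenib in wild type. In ARID1B-KO it was at 486, 476 and 378 CPM with DMSO and 1010, 849 and 660 CPM with sorafenib. The groups did not overlap in either genotype, but only the ARID1B-KO change passed the test, at 0.91 ± 0.15 (edgeR adjusted p = 3.66e-04) against 0.40 ± 0.15 (adjusted p = 0.0585) in wild type. Beta-galactosidase (GLB1), which removes galactose from glycolipids and glycans, went from 83.1, 99.2 and 78.5 CPM to 182, 146 and 110 CPM in ARID1B-KO (0.75 ± 0.16, adjusted p = 0.00186). In wild type GLB1 stood at 92.1, 106 and 117 CPM with DMSO and 132, 145 and 138 CPM with sorafenib, without overlap, and its 0.40 ± 0.16 did not pass (adjusted p = 0.0657). Both genes lost the ARID1B-KO call when transcript length was corrected for (adjusted p = 0.0925 for CTSB and 0.24 for GLB1).

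HEXA, PSAP and LIPA also rose in ARID1B-KO with groups that overlapped, since replicate 3 of the sorafenib group reached down into the DMSO range. The ganglioside-degrading HEXA went from 66.7, 94.7 and 72.0 CPM to 137, 125 and 92.6 CPM (0.60 ± 0.15, edgeR adjusted p = 0.00533). PSAP, the precursor of the saposins that present lipids to the hydrolases, went from 618, 704 and 519 CPM to 1290, 997 and 673 CPM (0.69 ± 0.20, adjusted p = 0.0128). LIPA, the acid lipase that frees cholesterol and fatty acids from lipoprotein lipids, went from 257, 242 and 201 CPM to 372, 320 and 239 CPM (0.41 ± 0.15, adjusted p = 0.0349). The PSAP call was lost without ARID1B-KO DMSO replicate 3 (edgeR adjusted p = 0.0518) or ARID1B-KO sorafenib replicate 1 (0.061). The LIPA call was lost without ARID1B-KO DMSO replicate 2 (0.0633) or 3 (0.125) and without ARID1B-KO sorafenib replicate 1 (0.153) or 2 (0.0915), with the length correction (0.0776) and with the 2 groups alone in the fit (0.0843). Counted over protein-coding transcripts alone, the HEXA value of 0.51 did not pass (0.104). In wild type these genes had log2 fold changes of 0.33 ± 0.15 (HEXA), 0.42 ± 0.20 (PSAP) and 0.17 ± 0.15 (LIPA), and none passed.

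GLA, the alpha-galactosidase missing in Fabry disease, was the hydrolase that fell. It went from 36.0, 36.1 and 34 CPM to 27.6, 25.0 and 24.0 CPM in wild type (-0.47 ± 0.12, edgeR adjusted p = 0.00652), with no overlap. In ARID1B-KO the libraries at 36.6, 32.9 and 30.6 CPM with DMSO and 36.0, 32.8 and 25.9 CPM with sorafenib overlapped (-0.08 ± 0.12, adjusted p = 0.603). Counted over protein-coding transcripts alone, the wild-type value was -0.28 and did not pass (adjusted p = 0.275). In wild type, 2 transcripts with a retained intron held smaller mean shares of the gene's counts with sorafenib. GLA-202 went from 15.6% to 10.1% and GLA-204 from 12.2% to 8.34%. Their modelled lengths of 618 and 793 bases differ from the 1431 and 1909 bases in GENCODE 44. The proteases CTSD and CTSL and the glycogen-degrading GAA were not called in any contrast, with sorafenib log2 fold changes from -0.12 to 0.38.

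In the membrane and cholesterol-export group, the partners NPC1 and NPC2, which pass cholesterol out of the lysosome in turn, went in opposite directions in wild type. NPC2, the soluble carrier (ENSG00000119655.11, chromosome 14, 74476192 to 74494177), rose from 121, 111 and 109 CPM to 184, 179 and 174 CPM in wild type and from 106, 137 and 125 CPM to 277, 249 and 219 CPM in ARID1B-KO. The groups were apart in both genotypes, by 1.58-fold and 2.02-fold (0.66 ± 0.11, edgeR adjusted p = 4.19e-04, and 1.01 ± 0.11, adjusted p = 8.78e-06). NPC1, the membrane transporter, fell from 143, 170 and 176 CPM to 93.3, 108 and 90.8 CPM in wild type (-0.74 ± 0.15, adjusted p = 0.00193). The ARID1B-KO libraries had 126, 127 and 93.7 CPM with DMSO and 125, 112 and 86.3 CPM with sorafenib, with overlapping groups (-0.11 ± 0.15, adjusted p = 0.591). The NPC1 level with DMSO was already lower in ARID1B-KO, as given below.

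MCOLN1, the lysosomal calcium channel TRPML1 (ENSG00000090674.16, chromosome 19, 7522624 to 7534009), was at 9.96, 13.8 and 14.2 CPM with DMSO and 6.24, 7.85 and 6.49 CPM with sorafenib in wild type. In ARID1B-KO it was at 11.6, 12 and 11.6 CPM with DMSO and 9.01, 7.75 and 7.21 CPM with sorafenib. It fell in both genotypes without overlap, by -0.88 ± 0.15 (edgeR adjusted p = 6.44e-04) and -0.55 ± 0.15 (adjusted p = 0.0093). LAMP1, one of the most abundant glycoproteins of the lysosomal membrane, was not called in any contrast and went from 331 ± 48.4 to 341 ± 50.2 CPM in wild type (SD, n = 3). LAMP2 rose in ARID1B-KO, from 137, 125 and 105 CPM to 198, 175 and 136 CPM with a slight overlap (136 against 137 CPM) (0.48 ± 0.13, adjusted p = 0.00989), and was at 184, 193 and 198 CPM with DMSO and 212, 216 and 190 CPM with sorafenib in wild type (0.10 ± 0.13, adjusted p = 0.573).

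**Figure D3:**
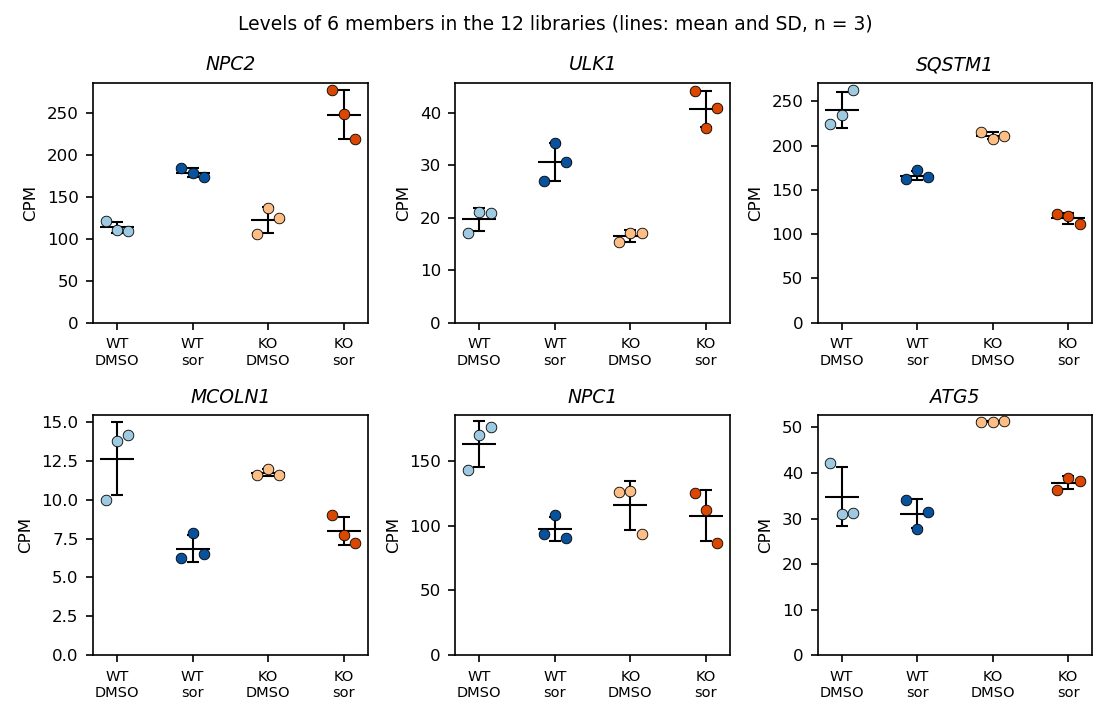
CPM of 6 members in each library (points), with the group mean and SD (lines, n = 3); each vertical axis starts at 0. NPC2 and ULK1 are higher and SQSTM1 and MCOLN1 lower with sorafenib in both genotypes, NPC1 is lower in wild type, and ATG5 stands highest in ARID1B-KO with DMSO.

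Behind the LAMP2 total, the shares of its transcripts changed. LAMP2 is spliced to different last exons: LAMP2-201 (ENST00000200639.8) encodes isoform A, known as the receptor of chaperone-mediated autophagy, and LAMP2-202 (ENST00000371335.4) encodes isoform B. With DMSO, LAMP2-201 held 29.3%, 28.2% and 28.5% of the gene's counts in wild type and 23.6%, 27.7% and 28.5% in ARID1B-KO. With sorafenib it held 41.4%, 38.0% and 43.2% in wild type and 39.9%, 40.2% and 41.6% in ARID1B-KO, so every sorafenib library lay above every DMSO library in each genotype. Together these transcripts hold most of the gene's counts, so their shares move against each other. The share of LAMP2-202 went from a mean of 67.9% to 53.8% in wild type and from 69.0% to 56.9% in ARID1B-KO. In level, LAMP2-201 stood at 53.8 to 56.4 CPM with DMSO and 81.9 to 87.7 CPM with sorafenib in wild type, and at 29.8 to 34.6 CPM and 56.4 to 79.0 CPM in ARID1B-KO. LAMP2-202 stood at 125 to 133 CPM with DMSO and 102 to 119 CPM with sorafenib in wild type. In ARID1B-KO its level did not fall, at 73.0 to 96.8 CPM with DMSO and 77.6 to 112 CPM with sorafenib, with overlap. The shares are Salmon's estimates and were not tested. The deposited tables model LAMP2-201 at 1867 bases, against 6535 bases in GENCODE release 44.

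**Figure D4:**
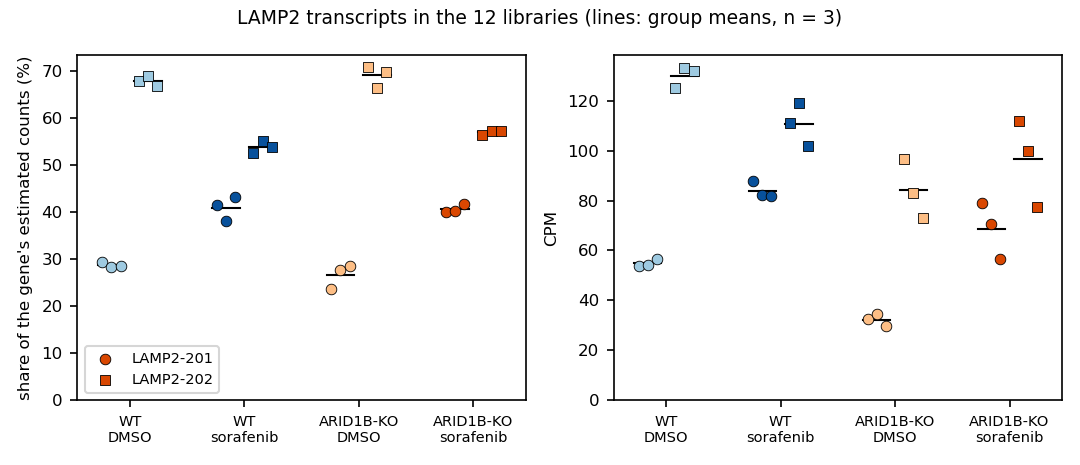
Share of LAMP2 counts (left) and level in CPM (right) of the transcripts LAMP2-201 (circles) and LAMP2-202 (squares) in each library, with group means as lines (n = 3). The share of LAMP2-201 lies between 23.6% and 29.3% in the DMSO libraries and between 38.0% and 43.2% in the sorafenib libraries.

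Of the 6 tested V-ATPase members, 1 rose in each genotype and none fell (none was lower at an unadjusted p under 0.05 or by DESeq2), with median log2 fold changes of 0.18 in wild type and 0.08 in ARID1B-KO. The 16.7% called in each genotype stood beside 35.4% and 46.7% of all tested genes called in either direction. ATP6V0D1, a subunit of the membrane sector that couples the rotor, rose in wild type from 43.8, 49.7 and 43.9 CPM to 55.0, 58.5 and 56.9 CPM without overlap (0.31 ± 0.07, edgeR adjusted p = 0.00455), a call lost with the length correction (adjusted p = 0.182). In ARID1B-KO it was at 55.5, 54.8 and 57.4 CPM with DMSO and 55.6, 58.8 and 58.3 CPM with sorafenib, close to the wild-type sorafenib libraries under both treatments (ARID1B-KO change 0.04 ± 0.07, adjusted p = 0.665). The accessory subunit ATP6AP1 rose in ARID1B-KO from 125, 151 and 107 CPM to 231, 179 and 140 CPM with overlap (0.52 ± 0.17, adjusted p = 0.0253). Leaving out ARID1B-KO DMSO replicate 1 or 3 or ARID1B-KO sorafenib replicate 1 or 2 ended the ATP6AP1 call (edgeR adjusted p = 0.0633, 0.0935, 0.12 and 0.05), as did the length correction (0.188) and a fit of the 2 groups alone (0.0578). The membrane subunit ATP6V0A1 and the cytoplasmic subunits ATP6V1A, ATP6V1B2 and ATP6V1H were not called with sorafenib, at -0.09 to 0.48.

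The transcription factor TFEB rose in ARID1B-KO from 5.90, 6.92 and 7.79 CPM to 11.4, 11.1 and 9.53 CPM without overlap (0.64 ± 0.16, edgeR adjusted p = 0.00499). The wild-type libraries had 9.07, 8.85 and 10.3 CPM with DMSO and 10.5, 15.2 and 11.6 CPM with sorafenib, also without overlap, and 0.40 ± 0.15 did not pass (adjusted p = 0.0606). TFE3, its close relative, was at 31.6 to 41.1 CPM in the wild-type libraries and 44.7 to 47.6 CPM in the ARID1B-KO libraries, with sorafenib log2 fold changes of 0.13 ± 0.08 and 0.05 ± 0.08 that did not pass. RNA levels do not show where these factors sit in the cell, which is how they are known to be controlled. With the correction for transcript length the TFEB rise did not pass (adjusted p = 0.159).

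Of the 9 autophagy members, 3 rose and 2 fell in wild type and 3 rose and 3 fell in ARID1B-KO. The 55.6% and 66.7% called in either direction stood beside 35.4% and 46.7% of all tested genes. ULK1, the kinase that starts autophagosome formation (ENSG00000177169.10, chromosome 12, 131894622 to 131923150), had 17.1, 21.1 and 20.9 CPM with DMSO and 27.1, 34.3 and 30.6 CPM with sorafenib in wild type. The ARID1B-KO libraries had 15.3, 17.1 and 17.2 CPM with DMSO and 44.1, 37.1 and 41.0 CPM with sorafenib. It rose 1.56-fold in wild type and 2.46-fold in ARID1B-KO without overlap (0.64 ± 0.11, edgeR adjusted p = 7.47e-04, and 1.30 ± 0.12, adjusted p = 1.91e-06). Corrected for transcript length, the ARID1B-KO value was 0.58 and did not pass (adjusted p = 0.445). On the TPM scale ULK1 was at 2.65 ± 0.419 and 8.80 ± 4.48 TPM with DMSO and sorafenib in wild type and at 4.52 ± 4.29 and 5.83 ± 0.413 TPM in ARID1B-KO (SD, n = 3), a wide spread in 2 of the 4 groups.

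GABARAPL1, an ATG8-family protein that is attached to the autophagosome membrane, went from 6.23, 5.52 and 6.56 CPM to 11, 7.61 and 10.5 CPM in wild type and from 4.61, 4.40 and 4.47 CPM to 10.1, 8.25 and 10.3 CPM in ARID1B-KO. It rose in both without overlap (0.67 ± 0.15, edgeR adjusted p = 0.00445, and 1.08 ± 0.16, adjusted p = 1.10e-04), though the wild-type rise did not pass with the length correction (adjusted p = 0.477). BECN1, the scaffold of the lipid kinase complex, rose in both genotypes, from 52.2, 51.9 and 49.8 CPM to 68.6, 69.4 and 62.9 CPM (0.38 ± 0.08, adjusted p = 0.0028) and from 38.9, 42.0 and 46.3 CPM to 52.8, 60 and 58.5 CPM (0.43 ± 0.08, adjusted p = 9.90e-04), all without overlap. MAP1LC3B, the other ATG8-family member here, was at 61.2 to 87.4 CPM over all 12 libraries and was called in no contrast.

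SQSTM1, which binds ubiquitinated cargo and is itself degraded with it (ENSG00000161011.20, chromosome 5, 179806398 to 179838078), fell in both genotypes. It was at 224, 234 and 263 CPM with DMSO and 162, 172 and 164 CPM with sorafenib in wild type, and at 215, 207 and 211 CPM and 123, 120 and 111 CPM in ARID1B-KO. The groups were apart in both genotypes (-0.54 ± 0.08, edgeR adjusted p = 2.42e-04, and -0.84 ± 0.08, adjusted p = 4.35e-06). WIPI1, which binds the lipid made by the BECN1 complex, fell from 29.1, 27.2 and 27.4 CPM to 17, 13.9 and 15.8 CPM in wild type and from 23.7, 23.4 and 25.6 CPM to 15.5, 16.2 and 17.7 CPM in ARID1B-KO. These falls, of -0.84 ± 0.09 (adjusted p = 2.09e-05) and -0.56 ± 0.09 (adjusted p = 3.54e-04), were also without overlap.

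ATG5, the partner of ATG12 in the conjugation machinery, fell in ARID1B-KO from 51.2, 51.3 and 51.5 CPM to 36.2, 39.0 and 38.3 CPM without overlap (-0.44 ± 0.12, edgeR adjusted p = 0.00711). In wild type ATG5 was at 42.2, 31.0 and 31.3 CPM with DMSO and 34.1, 27.7 and 31.4 CPM with sorafenib, with overlap (-0.17 ± 0.12, adjusted p = 0.293). The ARID1B-KO fall did not pass with the length correction (adjusted p = 0.108). ATG7 and UVRAG were not called with sorafenib, with log2 fold changes of 0.12 and 0.01 in wild type and -0.06 and -0.27 in ARID1B-KO.

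Whether the response differed between the genotypes was tested directly by the interaction of genotype and treatment, the ARID1B-KO response minus the wild-type response. No member was called by edgeR, against 0.374% of all tested genes called higher and 0.46% called lower, so the members called in 1 genotype alone are not shown to respond differently in the other. At an unadjusted p under 0.05 there were 8 members: ULK1 (0.66 ± 0.16, edgeR adjusted p = 0.0689), NPC1 (0.64 ± 0.21), CTSB (0.51 ± 0.22), CTSL (0.45 ± 0.21), GLA (0.39 ± 0.16) and NPC2 (0.36 ± 0.15) on the positive side and SQSTM1 (-0.30 ± 0.11) and ATP6V0D1 (-0.27 ± 0.10) on the negative side. The shares of 0.374% and 0.46% are for the adjusted p. The share of all tested genes under the unadjusted threshold was not counted, so the 8 have no background beside them. DESeq2 called ULK1 (0.67, DESeq2 adjusted p = 0.0128). With the length correction the ULK1 interaction turned to -1.21 (adjusted p = 0.596), and over the refits without 1 library its edgeR adjusted p ran from 0.0515 to 0.179. The median interaction of the 32 members was 0.24, beside -0.01 over all tested genes.

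ARID1B-KO and wild type differed with DMSO in both directions, and the comparison uses the same DMSO libraries as the sorafenib comparisons above. With DMSO 4 of 32 members were higher in ARID1B-KO and 5 lower, against 14.3% of all tested genes called higher and 13.5% called lower. The higher members were TFE3, the V-ATPase subunits ATP6V0D1 and ATP6V1B2, and ATG5, and the lower ones LAMP2, HEXA, NPC1, TFEB and BECN1. With sorafenib 4 were higher (NPC2, TFE3, ATP6V1B2 and ULK1) and 2 lower (SQSTM1 and ATG7), against 13.2% and 13.8%. The medians of the 32 members were -0.20 with DMSO and 0.08 with sorafenib, beside 0.01 and -0.00 over all genes. These shares of calls (28.1% and 18.8%) stood near or under the backgrounds of 27.8% and 27.0%. Every ARID1B-KO library lay above every wild-type one for 5 members and below for 13 with DMSO, against 21.8% and 20.5% of all tested genes (42.2% in either direction), and for 5 and 4 with sorafenib, against 20.5% and 22.2% (42.7%). The 5 lower calls with DMSO became 1 without WT DMSO replicate 2, 2 without WT DMSO replicate 3 or ARID1B-KO DMSO replicate 1, 3 without ARID1B-KO DMSO replicate 3, WT sorafenib replicate 3 or ARID1B-KO sorafenib replicate 2, and 8 without ARID1B-KO sorafenib replicate 3. The 4 higher calls with sorafenib became 1 without WT sorafenib replicate 1, 2 without WT sorafenib replicate 3 or ARID1B-KO sorafenib replicate 2, and 7 without ARID1B-KO sorafenib replicate 3, and the 2 lower calls became 5 without ARID1B-KO sorafenib replicate 1.

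**Figure D5:**
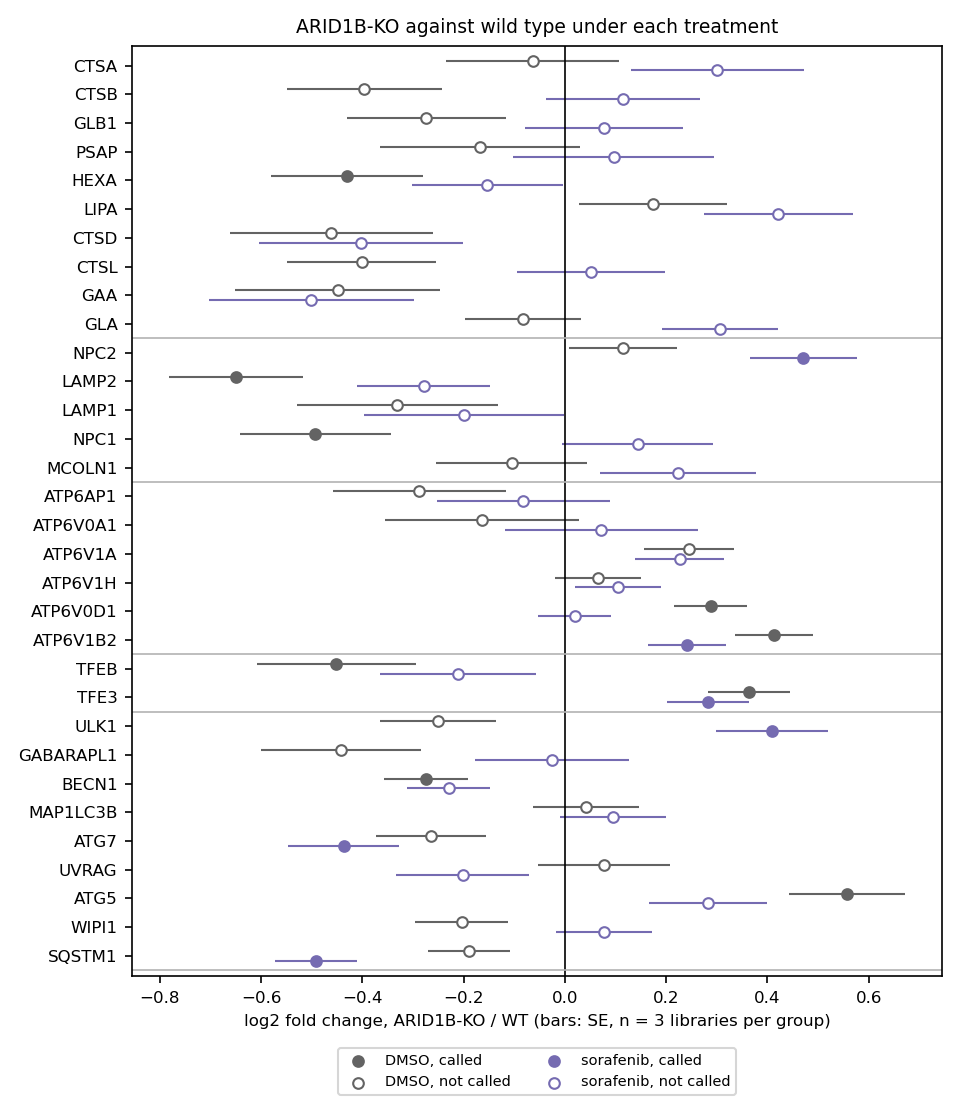
Points compare ARID1B-KO with wild type (log2 fold change) for each tested member with DMSO (grey) and with sorafenib (purple), with bars of 1 SE (n = 3 libraries per group); filled points passed the edgeR test at an adjusted p under 0.05. TFE3 and ATP6V1B2 are filled and to the right under both treatments, and LAMP2 lies furthest left with DMSO at -0.65.

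TFE3 and ATP6V1B2 were the members called in the same direction under both treatments. TFE3, at 31.6, 37.1 and 37.8 CPM in wild type and 44.7, 46.7 and 45.6 CPM in ARID1B-KO with DMSO, was higher by 0.36 ± 0.08 (edgeR adjusted p = 0.00524). With sorafenib TFE3 was at 37.9, 41.1 and 37.3 CPM in wild type and 47.3, 47.6 and 46.6 CPM in ARID1B-KO (0.28 ± 0.08, adjusted p = 0.0204). ATP6V1B2, a nucleotide-binding subunit of the cytoplasmic sector, stood at 87.5, 83.8 and 78.5 CPM against 106, 111 and 116 CPM with DMSO (0.41 ± 0.08, adjusted p = 0.00166) and at 89.9, 88.9 and 86.6 CPM against 98.7, 113 and 101 CPM with sorafenib (0.24 ± 0.08, adjusted p = 0.034). All 4 comparisons were without overlap. With sorafenib, the TFE3 call was lost without WT sorafenib replicate 1 (edgeR adjusted p = 0.068) or 3 (0.0787) or ARID1B-KO sorafenib replicate 2 (0.0614). With the length correction the TFE3 call was lost under both treatments (adjusted p = 0.297 with DMSO and 0.225 with sorafenib). That of ATP6V1B2 with sorafenib was lost without WT DMSO replicate 2 (0.0533), any of WT sorafenib replicates 1 to 3 (0.0732, 0.0858 and 0.107) or ARID1B-KO sorafenib replicate 2 (0.155), and with the replicate number as a block (0.0512), the length correction (0.0511), no filter on low counts (0.0588) or the 2 groups alone in the fit (0.0615).

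With DMSO, LAMP2 was lower in ARID1B-KO by -0.65 ± 0.13 (edgeR adjusted p = 0.00289), the lowest value among the members, with at most 137 CPM in ARID1B-KO and at least 184 CPM in wild type. ATG5 was higher by 0.56 ± 0.12 (adjusted p = 0.00322), with all ARID1B-KO libraries above the wild-type ones, and ATP6V0D1 by 0.29 ± 0.07 (adjusted p = 0.010). The ATP6V0D1 call was lost with the length correction (adjusted p = 0.251) and over protein-coding transcripts alone (0.0662). NPC1 was lower by -0.49 ± 0.15 (adjusted p = 0.0261), BECN1 by -0.27 ± 0.08 (adjusted p = 0.0258), TFEB by -0.45 ± 0.16 (adjusted p = 0.0479) and HEXA by -0.43 ± 0.15 (adjusted p = 0.0482), all without overlap. The calls of NPC1, BECN1, TFEB and HEXA were lost without certain single libraries. The NPC1 call was lost without WT DMSO replicate 2 (edgeR adjusted p = 0.0826) or 3 (0.0908) or ARID1B-KO DMSO replicate 3 (0.106), and with the length correction (0.347). That of BECN1 was lost without WT DMSO replicate 1 (0.0581) or 2 (0.0773) or ARID1B-KO DMSO replicate 1 (0.0753) or 2 (0.0577), with the length correction (0.646) and with the 2 groups alone in the fit (0.0632). TFEB lost its call in 12 of 19 refits, among them those without any 1 of WT DMSO replicates 1 to 3, WT sorafenib replicate 3, ARID1B-KO DMSO replicate 1 or 2, or ARID1B-KO sorafenib replicate 1 or 2 (edgeR adjusted p from 0.0503 to 0.155). HEXA lost its call in 11, among them those without WT DMSO replicate 2 or 3, any of WT sorafenib replicates 1 to 3, ARID1B-KO DMSO replicate 1 or 3, or ARID1B-KO sorafenib replicate 2 (0.0567 to 0.168).

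With sorafenib, SQSTM1 was lower in ARID1B-KO than in wild type by -0.49 ± 0.08 (edgeR adjusted p = 7.40e-04), with the highest ARID1B-KO library at 123 CPM and the lowest wild-type one at 162 CPM. NPC2 was higher by 0.47 ± 0.11 (adjusted p = 0.00553), its lowest ARID1B-KO library at 219 CPM and its highest wild-type one at 184 CPM, although over protein-coding transcripts alone 0.36 did not pass (adjusted p = 0.0855). ATG7, the enzyme that activates ATG8 proteins and ATG12, was at 11.3, 12.7 and 12.9 CPM in wild type and 8.54, 9.08 and 9.63 CPM in ARID1B-KO, lower without overlap (-0.44 ± 0.11, adjusted p = 0.0102), although with the length correction the call was lost (adjusted p = 0.0881). ULK1 was higher by 0.41 ± 0.11 (adjusted p = 0.0156), but the call was lost without WT sorafenib replicate 1 (0.0741) or ARID1B-KO sorafenib replicate 1 (0.055), and with the length correction the value turned to -0.60 (adjusted p = 0.478).

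The genes with the E-box shown above were not all called in the same direction with sorafenib. MCOLN1 alone among them had negative log2 fold changes. Those of the others were positive, at 0.04 to 0.58 in wild type and 0.04 to 0.94 in ARID1B-KO, most of them not called. CTSA rose in both genotypes, ATP6V0D1 rose in wild type, MCOLN1 fell in both, and LAMP1, CTSD and GAA were called in no contrast. The full 10-base form is in the windows of MCOLN1 and GAA. Of the members called in both genotypes, NPC2, GABARAPL1, ULK1, BECN1, SQSTM1 and WIPI1 had windows without the core, which says only that these letters are not in those windows.

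The wider pathway was read from 6 lists of 167 other genes, 156 of them tested, which were drawn up with earlier results of these data known. With sorafenib 34 rose and 13 fell in wild type (median 0.13) and 54 rose and 16 fell in ARID1B-KO (median 0.23). The risen genes were 21.8% and 34.6% of those tested beside 17.5% and 23.0% of all genes, and the genes called in either direction were 30.1% and 44.9% beside 35.4% and 46.7%. Of 35 other hydrolases and cofactors, 8 rose and 2 fell in wild type and 16 rose and 1 fell in ARID1B-KO. Among them GM2A, the activator that works with HEXA, rose in both genotypes (0.96 ± 0.15, edgeR adjusted p = 2.76e-04, and 1.01 ± 0.15, adjusted p = 1.14e-04), and the sulfatase ARSB fell in both (-1.19 ± 0.15, adjusted p = 8.10e-05, and -1.12 ± 0.16, adjusted p = 9.15e-05). With DMSO, 12 of the 35 were lower in ARID1B-KO (34.3%) and 2 higher (5.71%), beside 13.5% and 14.3% of all tested genes. The lysosomal nuclease DNASE2 (-1.59 ± 0.18, edgeR adjusted p = 3.59e-05) had the smallest adjusted p among the 35.

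Of 42 other autophagy genes tested, 10 rose and 3 fell with sorafenib in wild type and 13 rose and 3 fell in ARID1B-KO. The 31.0% and 38.1% called in either direction stood beside 35.4% and 46.7% of all tested genes. TP53INP2, a nuclear and autophagosomal cofactor, went from 28.4 to 87.1 CPM in wild type and from 40.1 to 107 CPM in ARID1B-KO (group means, 1.61 ± 0.10, edgeR adjusted p = 1.33e-07, and 1.41 ± 0.10, adjusted p = 2.47e-07). The cargo receptors OPTN and NBR1 rose in both genotypes, in ARID1B-KO by 1.71 ± 0.12 (adjusted p = 3.20e-07) and 0.84 ± 0.10 (adjusted p = 2.53e-05), whereas the receptor among the members, SQSTM1, fell. Among 13 other V-ATPase subunits, 1 rose and 3 fell in wild type and 4 rose and 3 fell in ARID1B-KO. ATP6V0E2 rose in both (0.67 ± 0.10 and 0.51 ± 0.10) and ATP6V0B fell in both (-0.63 ± 0.10 and -0.62 ± 0.10). Of 21 other membrane proteins, 2 rose and 3 fell in wild type and 5 rose and 4 fell in ARID1B-KO, led by LITAF (0.93 ± 0.08 and 0.79 ± 0.08) and LAPTM4B (-0.70 ± 0.16 and -0.74 ± 0.16).

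The transcripts behind the member totals were firm for some genes and not for others. For 5 members (ATP6V1A, ATP6V1B2, LAMP1, LIPA and PSAP) a single transcript held over 90% of the counts in every library. For CTSB and CTSD the leading transcript is not annotated as coding: CTSB-219, annotated as subject to nonsense-mediated decay, held from 8.63% to 55.3% of the CTSB counts in a library. The leading transcripts of ATG5 and TFEB ranged from 0% to 84.0% and 86.7% between libraries. The length correction is built from each transcript's estimated share and so rests on these splits, whereas the gene totals sum over them.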

How the data were processed

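Polyadenylated RNA of 12 HepG2 libraries (3 per group, groups from the sample titles) was prepared with the KAPA mRNA HyperPrep kit from 750 ng of total RNA with 9 PCR cycles and read as 75 bp pairs, per the labels' protocols. The authors deposited a Salmon table per library; per the file headers it holds an estimated count, a length, an effective length and a TPM value for each of 177456 transcripts. The estimated counts deposited are fractional and not normalized, and the deposited TPM values are scaled within a library. Salmon (version not given in the sources used here) and DESeq2 1.46.0 were used on GRCh38, per the submitters' processing notes. Ensembl 109 is named as the annotation, but no transcript number in the tables exceeds 671676 and 8817 coding transcripts of GENCODE 44 (Ensembl 110) have larger ones, so the release is uncertain.

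Identifiers without version were matched to GENCODE 44 (93.3%; the rest held 2.87% to 3.20% of a library's counts and were left out). Estimated counts were summed per gene and rounded. In R 4.3.3, edgeR 4.0.16 (TMM, filterByExpr on the 4 groups, robust quasi-likelihood F test, 4 group means over all 12 libraries, Benjamini-Hochberg over 12821 genes) gave the tests, checked on simulated counts; SE is the absolute log2 fold change over the square root of F. CPM use the TMM-normalised library size. TPM were summed per gene and used for levels between genes, and for ULK1 also between groups, without a test. Replicates are biological per the series' design text. The members and lists were chosen with earlier results of these data known. Named were all 34 listed genes, ARID1B, and for each list and comparison the 4 called genes of lowest adjusted p. DESeq2 1.42.0 and the other alternatives are in the closing section.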

Additional observations from a re-analysis of the deposited data

Results flagged for a closer look

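TP53INP1, a stress-induced gene whose product binds ATG8 proteins and acts in autophagy, was the 1 gene of the 6 pathway lists whose response to sorafenib differed between the genotypes in the interaction test. That is 0.641% of the 156 tested list genes, beside 0.835% of all tested genes called in either direction. TP53INP1 was at 31.1, 35.4 and 31.4 CPM with DMSO and 44.8, 47.2 and 48.6 CPM with sorafenib in wild type, and at 30.1, 25.4 and 26 CPM and 62.8, 61.2 and 65.8 CPM in ARID1B-KO. The log2 fold change was 0.52 ± 0.09 in wild type and 1.22 ± 0.09 in ARID1B-KO, a difference of 0.697 ± 0.122 (SE, edgeR adjusted p = 0.0273). In each genotype every sorafenib library lay above every DMSO library. The gene was also called with DESeq2 (adjusted p = 4.20e-05), but not with the correction for transcript length (edgeR adjusted p = 0.129) or the replicate number as a block (0.0652). Leaving out 1 library gave edgeR adjusted p from 0.0197 to 0.0894, with the call lost in 9 of the 12 cases, those without WT DMSO replicate 2 or 3, any of WT sorafenib replicates 1 to 3, ARID1B-KO DMSO replicate 2 or 3, or ARID1B-KO sorafenib replicate 1 or 2. The cause of the difference was not tested.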

How the results depend on the processing

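The 5 comparisons were refitted with up to 19 alternatives: DESeq2, another normalization, no filter on low counts, an offset for transcript length, protein-coding transcripts alone, the replicate number as a block, the 2 compared groups alone (not for the interaction), and each library left out in turn. Of 43 called member values, 19 were called in every refit and 24 lost the call in at least 1, and 736 of the 817 refits of called values were still called. Of 117 uncalled values, 63 of 2191 refits were called and 73 had the other sign. Members that rose with sorafenib in wild type numbered 6, and 3 with the length offset, 11 with the 2 groups alone, and 5 to 10 without 1 library. In ARID1B-KO they numbered 13, 7 with the length offset, and 10 to 16 without 1 library. Lower members of ARID1B-KO against wild type with DMSO numbered 5, 8 with DESeq2, 3 with no filter, 3 with protein-coding transcripts, and 1 to 8 without 1 library. With sorafenib the higher members numbered 4, 2 with the length offset and 1 to 7 without 1 library, and the lower ones 2, 1 with the length offset and 2 to 5 without 1 library. The interaction had 0 called members, 1 with DESeq2. Turned round were ULK1 in ARID1B-KO against wild type with sorafenib (-0.60) and ATG4B with DMSO (-0.22), both with the length offset, and TSC1 with sorafenib in wild type (-0.34, protein-coding transcripts); the cause was not tested. Over all genes, 4543, 5982, 3563 and 3463 were called in the 4 comparisons of groups and 107 in the interaction. With the length offset these were 2870, 4089, 2190 and 2049, and 2 in the interaction, which had 545 with DESeq2, 19 with the block, 19 with protein-coding transcripts and 5 to 138 without 1 library. Over 18 pairs of libraries with the same replicate number, deviations from the group means correlated at -0.16 to 0.18 (mean 0.00). Between DMSO and sorafenib libraries of a genotype, same-numbered pairs stood at 0.05 to 0.084 in wild type and -0.021 to 0.184 in ARID1B-KO. Differently numbered pairs there stood at -0.079 to 0.008 and -0.169 to 0.099. Whether the numbers pair the samples within a genotype is not settled by so few pairs. With the replicate block, 6 members rose and 5 fell with sorafenib in wild type and 14 rose and 4 fell in ARID1B-KO, and ARID1B-KO against wild type gave 4 higher and 6 lower with DMSO and 5 higher and 2 lower with sorafenib. With 3 libraries a group, the values of LAMP2, PSAP and the hydrolases are limited by the spread between libraries. Members of about 5 to 15 CPM (MCOLN1, TFEB, GABARAPL1, ATG7) are also limited by counting error.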

Other observations

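A list of MiT/TFE factors, mTORC1 (the kinase that holds TFEB and TFE3 in the cytoplasm) and its lysosomal regulators had 23 tested genes, of which 8 rose and 2 fell with sorafenib in wild type and 9 rose and 2 fell in ARID1B-KO. The 43.5% and 47.8% called in either direction stood beside 35.4% and 46.7% of all tested genes. The sestrin gene SESN1, whose family restrains mTORC1, was at 41.9, 36.8 and 33.3 CPM with DMSO and 57.0, 52.3 and 53.7 CPM with sorafenib in wild type, and at 60.6, 62.4 and 67.8 CPM and 92.9, 105 and 112 CPM in ARID1B-KO. It rose with sorafenib in both genotypes (0.54 ± 0.10, edgeR adjusted p = 9.14e-04, and 0.70 ± 0.10, adjusted p = 7.76e-05) and was higher in ARID1B-KO with DMSO (0.77 ± 0.10) and with sorafenib (0.92 ± 0.10). SESN3 stood at 4.83 to 6.11 CPM in wild type and 13.9 to 20.7 CPM in ARID1B-KO (1.43 ± 0.13 with DMSO and 1.82 ± 0.14 with sorafenib). FNIP2, a partner of folliculin, fell in both genotypes, in wild type from 50.4 to 25.5 CPM (group means, -0.98 ± 0.13, adjusted p = 7.11e-05).

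Of 22 genes that deliver enzymes to lysosomes, 5 rose and none fell with sorafenib in wild type (5 had an unadjusted p under 0.05 in edgeR), and 7 rose and 3 fell in ARID1B-KO. The 22.7% and 45.5% called in either direction stood beside 35.4% and 46.7% of all tested genes. GNPTG, a subunit of the enzyme that makes the mannose 6-phosphate tag, was at 28.4, 29.5 and 30.1 CPM with DMSO in wild type and 14.7, 20.2 and 17 CPM in ARID1B-KO, lower by -0.76 ± 0.12 (edgeR adjusted p = 4.44e-04). With sorafenib it rose to 38.2, 34.7 and 29.6 CPM in ARID1B-KO (0.98 ± 0.12, adjusted p = 2.42e-05). In wild type GNPTG was also above every DMSO library with sorafenib, at 41.5, 39.1 and 38.4 CPM. SUMF1, which activates all sulfatases, was lower in ARID1B-KO with DMSO (-0.65 ± 0.11, adjusted p = 8.13e-04) and rose there with sorafenib (0.59 ± 0.11, adjusted p = 7.59e-04). These comparisons share the ARID1B-KO DMSO libraries.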
